A study of Mus musculus with 15 samples.

Results

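The potassium channel genes described here were the protein-coding genes whose symbol starts with Kcn, taken from both expression tables of a study of interneurons born in the medial ganglionic eminence (MGE). The Lhx6 table listed 76 of them among 26835 genes and the Mtg8 table listed 72 among 25714 genes. Across both tables there were 81 symbols, of which 67 appeared in both. A gene was tested in a table when its mean normalised count over the libraries there was at least 10, which held for 54 members in each table, for 50 members in both and for 58 in either. Below that mean fell 22 members listed for Lhx6 and 18 listed for Mtg8.

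RNA was sequenced from YFP+ cells sorted by FACS from the cortex of single mouse embryos at embryonic day 14.5, on a C57BL6/CBA background and of both sexes. The Lhx6 comparison held 4 *Lhx6* +/+ controls and 5 *Lhx6* -/- mutants, and the Mtg8 comparison held 3 *Mtg8* +/+ controls and 3 libraries labelled *Mtg8* -/-. The *Mtg8* allele was a LacZ knock-in and the *Lhx6* allele was a germline loss-of-function allele derived from floxed mice. All embryos, controls included, also carried an *Nkx2-1-Cre* transgene and R26R-YFP fl/fl, so the reporter marked cells with a history of Cre driven by *Nkx2-1*, and the controls were littermates according to the methods. Each library came from a separate embryo, and the p-values below measure the spread between embryos. Each comparison had its own controls, and the tables were normalised separately.

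Potassium channels let potassium leave the cell when they open, which pulls the membrane towards its resting potential, shortens action potentials and sets how fast a neuron can fire. Voltage-gated channels (the Kcna, Kcnb, Kcnc, Kcnd, Kcnh and Kcnq subfamilies) open on depolarisation, tandem-pore channels (Kcnk) carry the background leak, inward rectifiers (Kcnj) pass current mainly near rest, and the Kcnma and Kcnn channels respond to internal calcium. Other members form no pore of their own and instead change the gating or the traffic of a pore subunit, among them Kcnmb, Kcnip, Kcnab and Kcne. In mature cortex, fast-spiking interneurons are known for Kcnc channels. In embryonic interneurons potassium channels also set the resting potential during migration.

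The targeted genes were examined first. *Lhx6* itself fell from 7247 ± 1092 normalised counts (SD, n = 4) in the controls to 331 ± 99.7 (SD, n = 5) in the *Lhx6* mutants, which was 4.57% of the control mean, and the groups did not overlap (log2 fold change -4.48, SE 0.20, adjusted p = 1.34e-07). *Runx1t1*, the gene that encodes MTG8, was not lower in the libraries labelled *Mtg8* mutant. The 3 Mtg8 controls averaged 8891 ± 1219 normalised counts (SD) and the 3 libraries labelled *Mtg8* mutant 12845 ± 944, or 144% of the control mean (log2 fold change 0.54, SE 0.17, adjusted p = 0.859). Whether these gene-level counts cover the disrupted part of the locus was not tested, so they did not check the labels of that comparison. Among other genes, *Sst* ran from 14420 to 18501 in Mtg8 controls and from 5683 to 8048 in libraries with the mutant label. *Npy* ran from 5037 to 6247 and from 1952 to 3577, and neither gene overlapped between the groups (for *Sst* and *Npy*, limma adjusted p = 0.0713 and 0.58, DESeq2 adjusted p = 6.35e-06 and 0.025). In the Lhx6 comparison *Runx1t1* rose from 7449 ± 1072 to 17973 ± 5387 (SD, n = 4 and 5), or 241% of the control mean (log2 fold change 1.23, SE 0.19, adjusted p = 0.004). All directions in the Mtg8 comparison refer to these labels, and "labelled mutant" below stands for a library labelled *Mtg8* mutant.

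The libraries held between 12218422 and 22053032 reads assigned to genes. The transcripts of *Gad1*, a marker of GABAergic neurons, and of *Nkx2-1*, a marker of the MGE, were present in every library, with at least 1718.8 and 546.6 normalised counts. The transcripts of pyramidal neurons were present too. The 10 pyramidal lineage genes, all of them tested, summed to between 16067 and 21322 in Lhx6 controls and to between 12797 and 17391 in Lhx6 mutants, while in the Mtg8 comparison the controls held between 5226.5 and 13227 and the libraries labelled *Mtg8* mutant between 8265 and 20745. Library names carried a date in 4 of 5 Lhx6 mutants, in no Lhx6 control, in 2 of 3 Mtg8 controls and in 1 of 3 libraries labelled *Mtg8* mutant. What the date stands for is not given in the sources used here, and in the Lhx6 comparison the name style and the genotype can be told apart only through mutant 6, which shares the style of the controls. The name of mutant 6 also begins with the same numbers as those of Lhx6 controls 1 and 2, while the names of the other 4 Lhx6 mutants share no such beginning with a control. Lhx6 mutants 2 and 5 share one with each other, and in the Mtg8 comparison controls 1 and 2 and labelled mutant 2 share one. What a shared beginning stands for is not given in the sources used here. The main fits treated every embryo as independent.

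The pore of a potassium channel is lined by a short signature sequence that selects potassium over sodium, and auxiliary subunits lack it. The codons of the signature are shown for 5 members on which the results turn, with the 24 bases of the signature in capitals and 9 bases on each side in lower case, read from GENCODE vM21 transcripts of GRCm38 on the coding strand. They lie in exon 3 of *Kcnc2* (chr10:112456211-112456252, + strand), exon 5 of *Kcnk2* (chr1:189256572-189256613, - strand), exon 4 of *Kcnn1* (chr8:70850648-70850689, - strand), exon 3 of *Kcns3* (chr12:11091566-11091607, - strand), and across the junction of exons 1 and 2 of *Kcnd3* (chr3:105459896-105658626, + strand, a span that includes the intron).
Kcnd3: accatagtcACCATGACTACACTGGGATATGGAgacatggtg
Kcnc2: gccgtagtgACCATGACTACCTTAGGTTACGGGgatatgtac
Kcns3: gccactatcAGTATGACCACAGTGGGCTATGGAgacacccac
Kcnk2: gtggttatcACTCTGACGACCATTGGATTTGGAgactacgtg
Kcnn1: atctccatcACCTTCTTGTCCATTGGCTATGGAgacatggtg
*Kcnmb2*, *Kcnip1* and the other Kcnmb, Kcnip, Kcnab and Kcne members held 0 matches in their longest coding sequence, and so did *Kcnrg*. The letters searched for were also not found in the pore subunits *Kcnj8*, *Kcnj11* and *Kcnk13*, so the match did not separate pore subunits from auxiliary members in every case.

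Per kb of exon, an auxiliary subunit and a leak channel were the most abundant members in the Lhx6 controls. *Kcnmb2*, the beta subunit that gives calcium- and voltage-gated (BK) channels fast inactivation, stood at 171 ± 24.2 normalised counts per kb (SD, n = 4). *Kcnk2*, the TREK leak channel, stood at 151 ± 10.8 per kb, *Kcnip1*, a calcium-binding subunit of A-type channels, at 139 ± 9.95 and *Kcna3*, a Shaker-type channel, at 119 ± 26.2 (SD, n = 4 each). The ranges of neighbours in this order overlapped.

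Lower levels followed for *Kcnip3* at 67.3, *Kcnd3* at 57.6, *Kcnn2* at 44.8, *Kcnc2* at 42.5 and *Kcnrg* at 38.4 normalised counts per kb, and neighbours among them also overlapped. The lowest *Kcna3* control, at 86.7 per kb, lay below the highest *Kcnip3* control, at 88.7 per kb. In the Mtg8 controls *Kcnmb2* again stood highest, at 276 ± 10.1 per kb (SD, n = 3), and its 3 controls lay above those of *Kcnk2*, at 185 ± 11.8 per kb. *Kcnip1* was at 43.4 ± 3.52 per kb in the Mtg8 controls. Levels in one table cannot be set against levels in the other, because each was scaled alone.

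**Figure D1:**
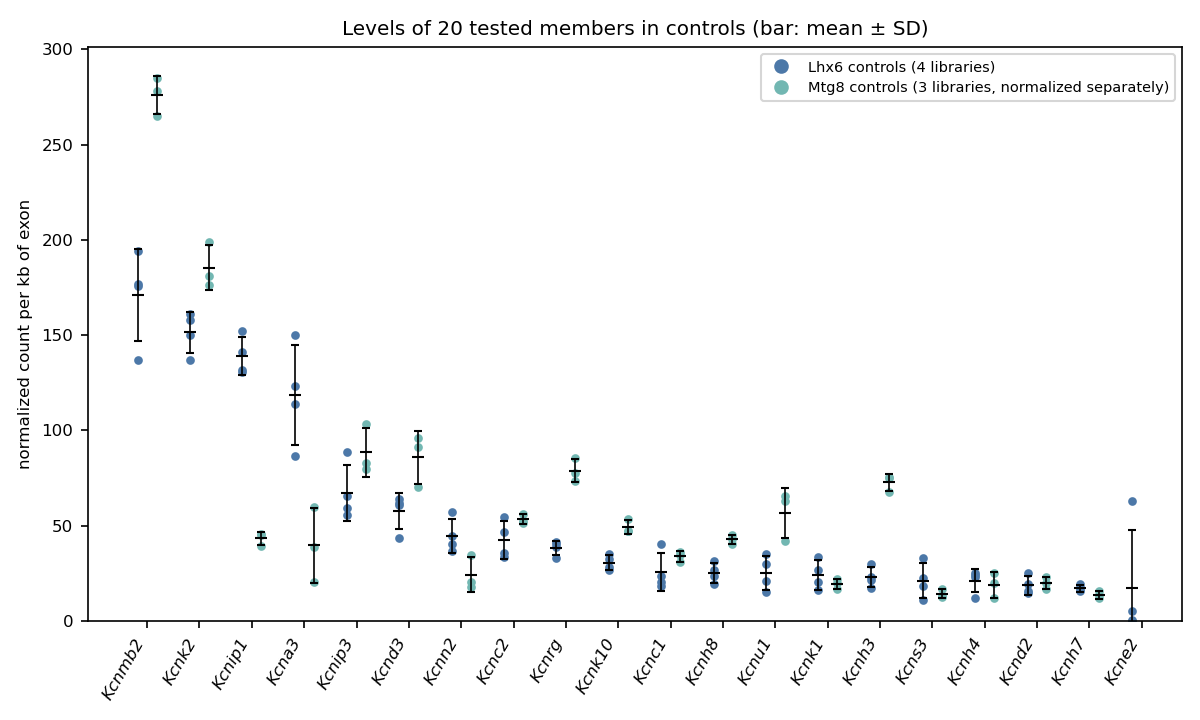
Level per kb of exon, in normalised counts per kb, of 20 tested members with high levels, in Lhx6 controls and in Mtg8 controls; each point is a library and the bars show mean ± SD. *Kcnmb2* and *Kcnk2* lead in both sets of controls, and *Kcnip1* stands at 139 per kb in Lhx6 controls and at 43.4 in Mtg8 controls. Each set was scaled alone, so levels cannot be compared between the sets.

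In the Lhx6 mutants 5 of the 54 tested members changed at an adjusted p under 0.05 in limma. *Kcns3*, *Kcnmb2*, *Kcnk2* and *Kcnd3* fell and *Kcnn1* rose. The 4 lower members were 7.41% of those tested, where 0.682% of all 16727 genes tested were called lower, and the 1 higher member was 1.85%, where 1.03% of all genes were called higher. DESeq2 on recovered reads called 4 members lower and 2 higher, against 1.54% and 3.06% of all genes, and edgeR called 4 lower and 1 higher, against 0.628% and 0.998%. Both of these tools called *Kcnc2* lower in place of *Kcns3*, and DESeq2 also called *Kcnn2* higher. In 5 members every mutant lay below every control (9.26%, against 3.03% of all genes), and in 2 every mutant lay above every control (3.7%, against 3.19% of all genes).

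Over all 54 members the median log2 fold change was -0.08, with 29 members below 0 and 25 above, and the median over all genes tested was -0.04. The members did not move together in one direction. With each mutant library set against the mean of the controls, the median over members ran from -0.26 to 0.19, so its sign differed between mutant embryos.

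**Figure D2:**
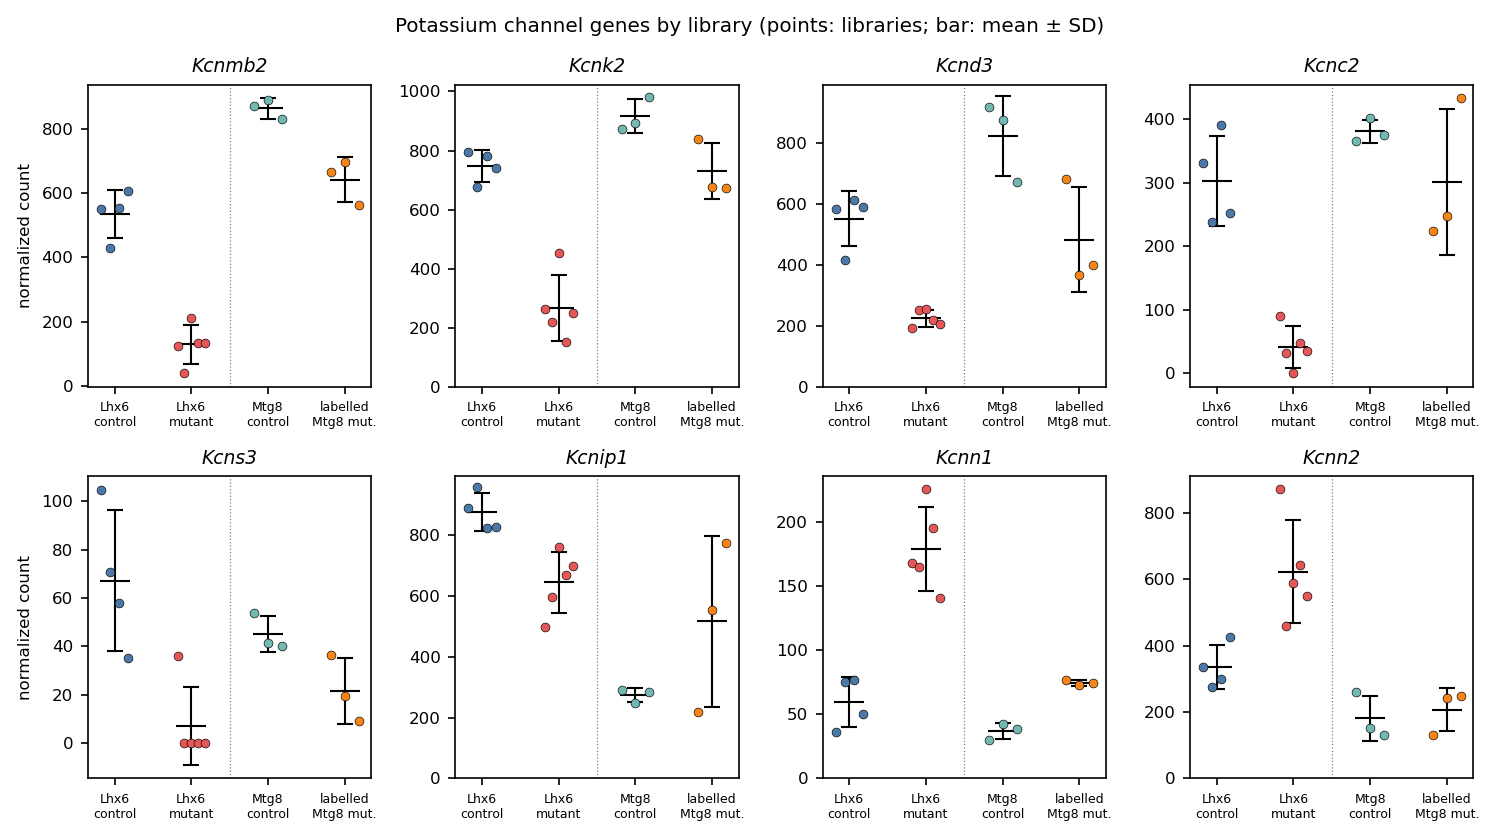
Normalised counts of 8 members in every library, with Lhx6 controls, Lhx6 mutants, Mtg8 controls and the libraries labelled *Mtg8* mutant side by side; each point is an embryo and the bars show mean ± SD. *Kcnmb2*, *Kcnk2*, *Kcnd3*, *Kcnc2* and *Kcnip1* of the Lhx6 mutants lie below all Lhx6 controls, and *Kcnn1* and *Kcnn2* lie above them.

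*Kcnmb2* (ENSMUSG00000037610.15, chr3:31902507-32200180, + strand) had 549.9, 429, 554 and 608 normalised counts in Lhx6 controls 1 to 4, and 125, 39.8, 210.5, 134 and 135 in Lhx6 mutants 1, 2, 3, 5 and 6. Every mutant lay below every control, and the highest mutant was mutant 3. The mutant mean was 24.1% of the control mean (log2 fold change -2.21, SE 0.38, adjusted p = 0.00764).

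The pore subunit that *Kcnmb2* joins is *Kcnma1*. It had 197 ± 60.3 normalised counts in the 4 controls and 159 ± 35.9 in the 5 mutants (SD), with overlapping groups (log2 fold change -0.28, adjusted p = 0.689). The difference in the auxiliary subunit was therefore not accompanied by a call in its pore subunit.

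*Kcnk2* (ENSMUSG00000037624.15, chr1:189207930-189402273, - strand) carries a background current that is opened by stretch, heat and lipids. Its normalised counts were 796, 676, 780.3 and 741 in controls 1 to 4 and 262, 220.3, 452, 151 and 250.1 in mutants 1, 2, 3, 5 and 6. The groups were separate and the mutant mean was 35.7% of the control mean (log2 fold change -1.57, SE 0.26, adjusted p = 0.00574). A long non-coding RNA on the other strand, *A430027H14Rik*, shares 604 bases, or 12.2%, of the exon sequence of *Kcnk2*. Its mean was 38.0 normalised counts, and whether counting used strand is not given in the sources used here. *Kcnk10*, a TREK relative, had 269 ± 32.9 normalised counts in controls and 414 ± 95.0 in mutants, on the other side of 0 from *Kcnk2* but not called (log2 fold change 0.60, adjusted p = 0.206).

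The A-type channel gene *Kcnd3* had the lowest adjusted p of the members. It (ENSMUSG00000040896.16, chr3:105452330-105674002, + strand) encodes a pore subunit of the channels that open below threshold, inactivate quickly and delay firing. It had 584, 417, 614 and 592 normalised counts in controls 1 to 4, and 193, 254, 255, 221 and 206 in mutants 1, 2, 3, 5 and 6. The mutants spanned a narrow range and all lay below the lowest control, which was control 2. The mutant mean was 40.9% of the control mean (log2 fold change -1.28, SE 0.18, adjusted p = 0.00203). *Kcnd2*, another Kcnd pore subunit, had 96.2 ± 25.0 in controls and 155 ± 77.7 in mutants and was not called (log2 fold change 0.56, adjusted p = 0.564). With the name style as a covariate its log2 fold change was -0.71, and mutant 6, at 57.0, lay below every control.

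Of the cytoplasmic subunits of A-type channels, 4 were tested and 0 were called. *Kcnip1* (ENSMUSG00000053519.17, chr11:33629339-33993152, - strand) had 891, 959, 825 and 829.5 normalised counts in controls and 499, 596, 762, 671 and 698 in mutants 1, 2, 3, 5 and 6. The groups did not overlap, but the difference did not pass the test (log2 fold change -0.45, SE 0.15, adjusted p = 0.218). *Kcnip3*, which is also known as a calcium-sensing transcriptional repressor, had 239 ± 52.5 against 169.9 ± 76.0 (adjusted p = 0.501). *Kcnip4* had means of 13.09 and 10.8 (adjusted p = 0.83). Their log2 fold changes were below 0, but with the name style as a covariate those of *Kcnip3* and *Kcnip4* were 0.21 and 1.11, and mutant 6 held 271 and 21.0 normalised counts of them, above the control means.

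*Kcnc2* (ENSMUSG00000035681.7, chr10:112271121-112467024, + strand) encodes a high-threshold channel that closes fast and lets interneurons fire at high rates. Its normalised counts were 332, 238, 391 and 253 in controls and 90.3, 32.4, 0, 47.5 and 34.7 in mutants 1, 2, 3, 5 and 6. All mutants lay below all controls, and mutant 3 held no read. The mean was 13.5% of the control mean, but limma gave an adjusted p of 0.0959 (log2 fold change -3.75, SE 0.999), DESeq2 0.0462 and edgeR 0.0479. Without mutant 3 the log2 fold change of *Kcnc2* was -2.64 and the limma adjusted p was 0.00148. Over the 9 fits that each left out 1 library, the limma adjusted p of *Kcnc2* ran from 0.00148 to 0.256. *Kcnc1*, which forms mixed channels with *Kcnc2*, had 243 ± 96.1 in controls and 358 ± 82.4 in mutants (log2 fold change 0.60, adjusted p = 0.365).

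*Kcns3* (ENSMUSG00000043673.11, chr12:11090202-11151056, - strand) is a silent subunit, which forms no channel alone and changes the gating of Kcnb channels. It had 105, 70.9, 58.0 and 35.1 normalised counts in the controls. In the mutants it had 35.9 in mutant 1, from 29 reads, and 0 in the other 4. Mutant 1 lay between controls 3 and 4, so the groups overlapped. The limma adjusted p was 0.0317, but the fitted log2 fold change of *Kcns3*, -4.95 (SE 1.06), depends on the pseudocount because of the zeros. DESeq2 gave an adjusted p of 0.515 and edgeR 0.265. Against the 4 mutants at 0 the control mean was at least 22.0-fold higher, taking 3 reads in each of them as the floor, a bound that covers counting error only. In 7 of the 9 fits that left out 1 library the limma call on *Kcns3* was lost. Over all 9 fits its limma adjusted p ran from 0.000394 to 0.170.

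The calcium-activated channels of small conductance lay on the other side. *Kcnn1* and *Kcnn2* encode SK channels, which open on internal calcium after a spike and contribute to the afterhyperpolarisation. *Kcnn1* (ENSMUSG00000002908.17, chr8:70842049-70863258, - strand) had 36.5, 75.3, 76.5 and 50.5 normalised counts in controls and 168, 165, 226, 196 and 141 in mutants 1, 2, 3, 5 and 6. Every mutant lay above every control (log2 fold change 1.61, SE 0.28, adjusted p = 0.00772).

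*Kcnn2* (ENSMUSG00000054477.16, chr18:45268860-45686024, + strand) had 335, 276, 300.3 and 428 in controls and 874, 460.0, 588, 644 and 549.8 in the same mutants. These groups were also separate and the mutant mean was 186% of the control mean, but the limma adjusted p was 0.0524 (log2 fold change 0.88, SE 0.21) and that of edgeR was 0.058, while DESeq2 gave 0.00241. *Kcnn3*, the remaining tested SK gene, had a log2 fold change of -0.04 (adjusted p = 0.948).

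**Figure D3:**
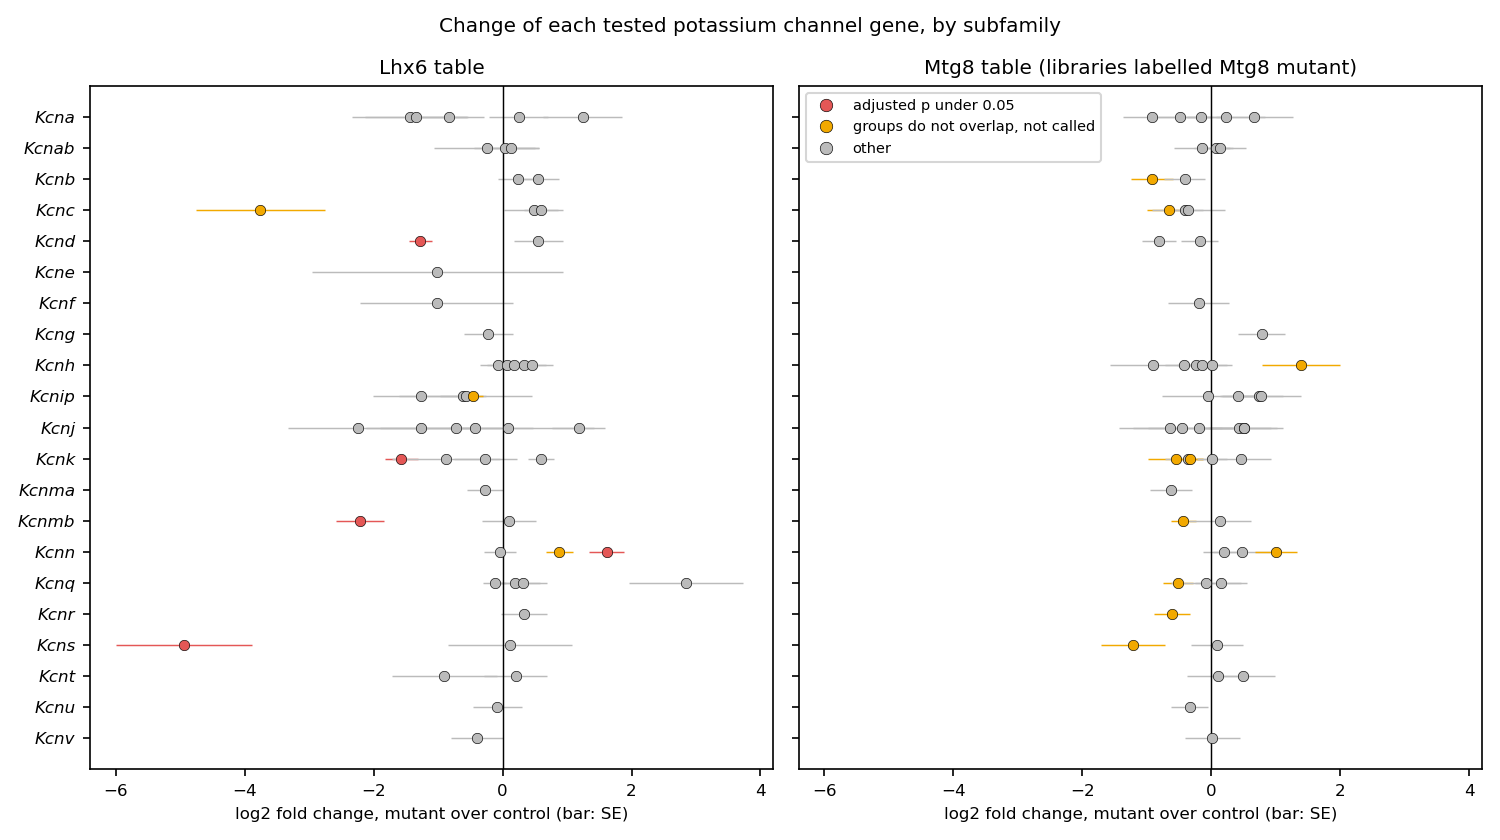
Log2 fold change of every tested member in the Lhx6 and Mtg8 comparisons, grouped by subfamily; each point is a gene with its standard error, red where limma called it, yellow where the groups did not overlap but it was not called, and grey otherwise. In the Lhx6 comparison *Kcns3*, *Kcnmb2*, *Kcnk2* and *Kcnd3* on the left and *Kcnn1* on the right are red.

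Levels per kb were also summed over the tested members of each subfamily in the Lhx6 comparison, as a description without a test. Kcnmb summed to 181 normalised counts per kb in controls and 53.6 in mutants, and Kcnk to 213 and 131, but *Kcnmb2* and *Kcnk2* alone made up 171 and 151 of these control sums. Kcnip summed to 218 and 158, and Kcnn to 66.5 and 131. In other subfamilies the sum and the median log2 fold change went opposite ways. Kcnj summed to 51.5 and 73.6 with a median of -0.57, Kcne to 17.2 and 49.0 with -1.01 from *Kcne2* alone, and Kcnc to 77.8 and 57.9 with 0.48. Mutant 3 carried the first pair, with 433 normalised counts of *Kcne2*, which was 0 in the other 4 mutants, and 170 of *Kcnj13*. Without that library, an alternative added after the data were seen, the mutant sum was 47.7 for Kcnj and 0 for Kcne, both below the control sum, and 59.1 for Kcnc.

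The remaining members did not pass the test. The inward rectifier *Kcnj3*, a subunit of the channels opened by G proteins, had means of 47.7 and 107 normalised counts in controls and mutants (log2 fold change 1.18, adjusted p = 0.229), and *Kcnj6*, its partner, was below the mean of 10, at 0.961, 6.2, 4.61 and 2.57 in controls and 1.24, 16.7, 19.6, 16.5 and 17.3 in mutants. Among the M-current genes, *Kcnq3* had 205 ± 58.4 in controls and 283 ± 165 in mutants (adjusted p = 0.734), and *Kcnq5* had means of 4.01 and 20.7 (adjusted p = 0.164). The Erg-type *Kcnh7* had 263 ± 28.0 and 372 ± 104 (adjusted p = 0.433). *Kcna3* had 225 ± 49.8 and 158 ± 87.3 (adjusted p = 0.553), and *Kcnrg*, a cytoplasmic regulator, 70.1 ± 6.82 and 98.1 ± 52.7 (adjusted p = 0.699).

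The low members of the fixed list were no clearer. Shaker-type *Kcna1* had 30.4 ± 5.89 normalised counts in controls and 18.3 ± 15.4 in mutants (adjusted p = 0.53), *Kcna2* 19.4 ± 3.32 and 25.5 ± 13.9 (adjusted p = 0.836) and their cytoplasmic subunit *Kcnab1* 18.2 ± 9.6 and 18.3 ± 10.5 (adjusted p = 0.91). The sodium-activated *Kcnt2* had 28.2 ± 10.9 and 22.9 ± 20.4 (adjusted p = 0.654). *Kcnj8*, a subunit of ATP-sensitive channels known from pericytes, had between 0 and 21.2 in controls and between 0 and 31.0 in mutants, and the tandem-pore *Kcnk13* had between 0 and 12.5 and between 0 and 19.8; neither reached the mean for testing. *Kcnk9* was not listed in the Lhx6 table.

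Markers of the lineage moved in the same libraries. The MGE lineage genes included *Lhx6*, whose fall the genotype fixed. The other 8, *Sst* and *Npy* among them, summed to between 26917 and 29851 normalised counts in Lhx6 controls and to between 8678 and 19716 in Lhx6 mutants, and 4 of the 8 were called lower in both limma and DESeq2, which also called *Lhx8* higher. The 7 CGE interneuron genes in the table summed to between 2515 and 3939 in controls and to between 4746 and 8208 in mutants, with 1 called higher and 2 lower in limma and 4 higher and 2 lower in DESeq2. Of the 7 interneuron genes *Dlx5* and *Dlx6* were called higher, and the 7 striatal or cholinergic genes in the table summed to between 810 and 1175 in controls and to between 1382 and 2503 in mutants, with 0 called in limma and 2, *Foxp1* and *Foxp2*, called higher in DESeq2. Limma called 0 of the 10 pyramidal lineage genes and DESeq2 called 1 lower. Of the 8 radial glia genes limma called 0 and DESeq2 called 1, *Sox2*, higher (DESeq2 adjusted p = 0.00716). *Sox2* ran from 841 to 1147 normalised counts in controls and from 1345 to 3900 in mutants. The part that these shifts had in the channel results was not tested, and in bulk RNA fewer cells of a type and less RNA per cell cannot be told apart. For *Kcnmb2*, *Kcnk2*, *Kcnd3*, *Kcnc2*, *Kcnip1*, *Kcnn1* and *Kcnn2* the groups did not overlap. Mutant 6, named in the style of the controls, thus lay outside the range of all 4 controls for them by that choice of genes. This was no separate check on the name style. With the name style as a covariate, which leaves the genotype difference to mutant 6 alone, 0 members were called, and the log2 fold changes were -1.97 for *Kcnmb2*, -1.58 for *Kcnk2*, -1.40 for *Kcnd3* and 1.29 for *Kcnn1*.

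*Kcne2* and *Kcnj13* are known for the choroid plexus, the tissue that secretes cerebrospinal fluid, and they followed single libraries. *Kcne2* had 111.5, 0, 9.21 and 0.855 normalised counts in Lhx6 controls 1 to 4 and 433 in mutant 3, and it was listed at 0 in the other 4 mutants. *Kcnj13* had 37.5, 0.886, 5.53 and 4.28 in the controls and 0, 3.70, 170.4, 3.88 and 4.95 in mutants 1, 2, 3, 5 and 6. The 6 choroid plexus genes *Ttr*, *Folr1*, *Clic6*, *Enpp2*, *Otx2* and *Aqp1*, a list made after the data were seen, summed to between 119 and 5967 in controls and to between 33.4 and 21057 in mutants, and control 1 and mutant 3 held the highest sum of their group. With both of these libraries left out, 4 members were called lower, namely *Kcnmb2*, *Kcnk2*, *Kcnd3* and *Kcnc2* (adjusted p = 0.0115 for *Kcnc2*), and *Kcns3* was not (adjusted p = 0.210). *Kcnn1* then had a log2 fold change of 1.31 and an adjusted p of 0.0577, so no member was called higher.

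**Figure D4:**
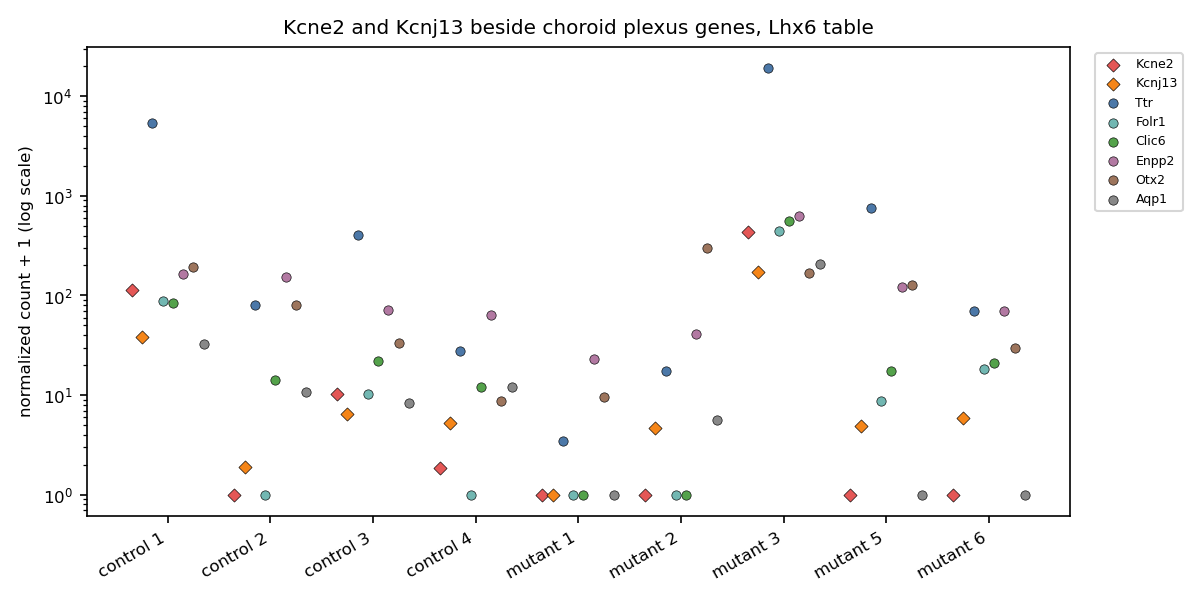
Normalised counts of *Kcne2* and *Kcnj13* beside choroid plexus genes in each library of the Lhx6 comparison, plotted as the count plus 1 on a log axis. Control 1 and mutant 3 stand above the other libraries of their groups for *Kcne2*, *Kcnj13* and *Ttr*.

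The other genes of the potassium channel pathway were taken as a list of 36 partners that do not carry a Kcn name, such as the gamma subunits of BK channels, the transmembrane subunits of A-type channels, and scaffolds. Of these, 33 were listed for the Lhx6 comparison and 30 were tested there, of which limma called 1 lower and 1 higher, where it called 0.682% of all tested genes lower and 1.03% higher. DESeq2 called 2 partners lower and 3 higher, beside 1.54% and 3.06% of all tested genes. *Dpp10*, which drives A-type channels to the surface and speeds their gating, had 1585, 1243, 1602 and 1669 normalised counts in controls and 517.2, 507.2, 736.7, 486.3 and 274.9 in mutants 1, 2, 3, 5 and 6. The groups of *Dpp10* were far apart (log2 fold change -1.65, SE 0.24, adjusted p = 0.00217). Its paralogue *Dpp6* overlapped between groups (log2 fold change -0.18, adjusted p = 0.772).

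*Cntnap2*, the adhesion protein that gathers Shaker-type channels beside the node of Ranvier, rose from 986.3, 1157, 1051 and 1172 in controls to 2039, 2615, 2491.5, 2626 and 2203 in those mutants (log2 fold change 1.13, SE 0.13, adjusted p = 0.000388). *Lgi1*, a secreted protein that slows inactivation of Shaker-type channels, had a log2 fold change of -1.09 and missed the threshold in limma (adjusted p = 0.0688), with separate groups and a DESeq2 adjusted p of 0.0068. *Dlg1* and *Dlg2*, scaffolds of Shaker-type channels, also had separate groups and passed in DESeq2 but not in limma. *Dlg1* had a log2 fold change of 0.87, with an adjusted p of 0.0804 in limma and 0.0103 in DESeq2. *Dlg2* had a log2 fold change of 0.78, with an adjusted p of 0.199 in limma and 0.0445 in DESeq2. The BK gamma subunit *Lrrc55* had a log2 fold change of -0.79 (adjusted p = 0.241).

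**Figure D5:**
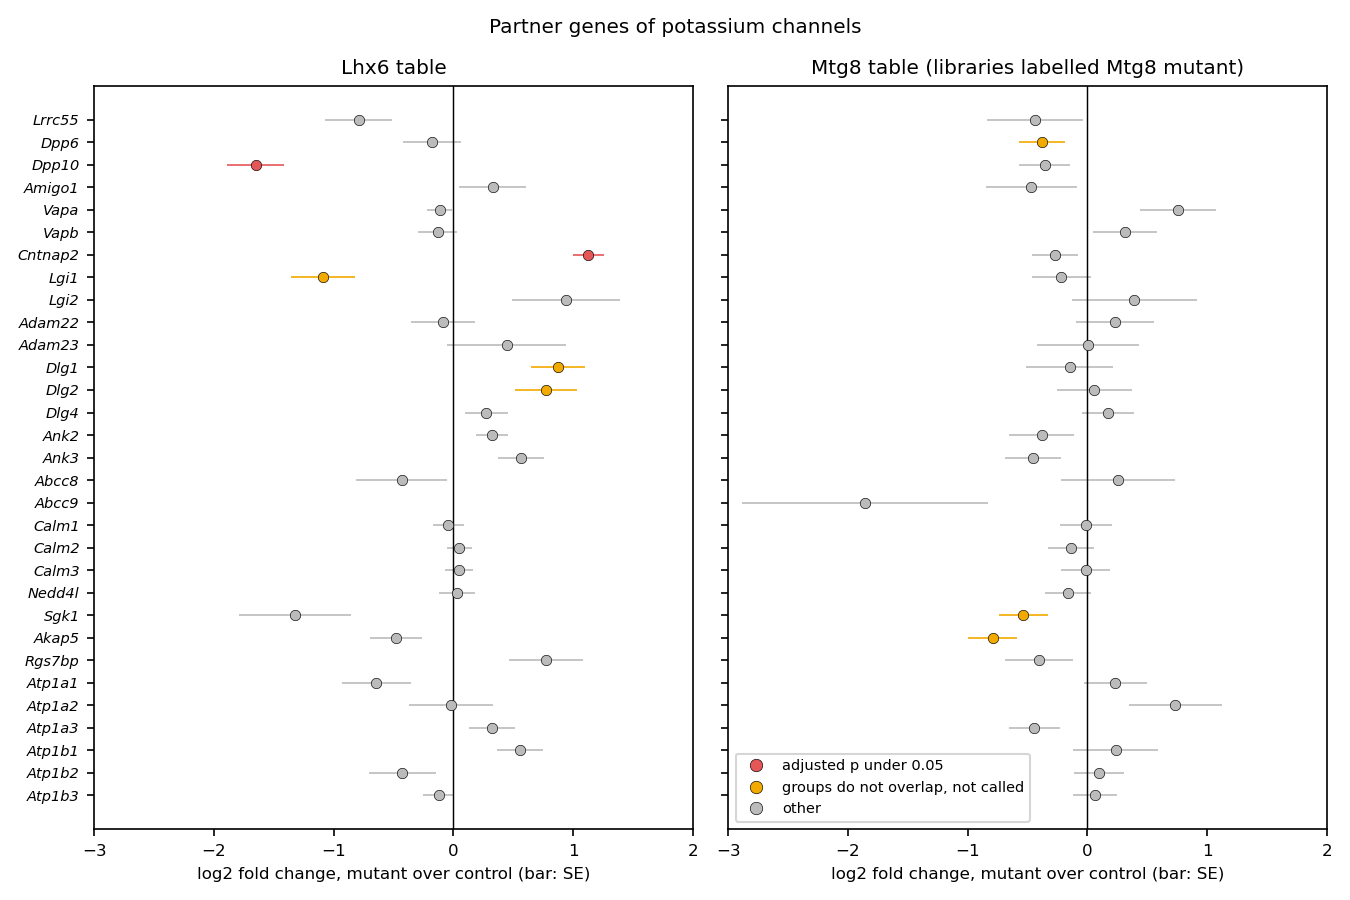
Log2 fold change with its standard error of the tested partner genes in the Lhx6 and Mtg8 comparisons, ordered by role, with called genes in red and separate but uncalled genes in yellow. In the Lhx6 comparison *Dpp10* at -1.65 and *Cntnap2* at 1.13 are the members of the list that passed in limma.

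Promoters were read for the highest member per kb and for the one with the lowest adjusted p. Both are RefSeq promoters of GRCm38.p6, from 250 bases before the start to 50 after, with TAAT, the core letters bound by homeodomain proteins, or its complement ATTA in capitals. The *Kcnmb2* promoter (chr3:31902453-31902752, + strand) held 4 matches at 47.7% GC, and the *Kcnd3* promoter (chr3:105451640-105451939, + strand) held 0 at 64.0% GC.
Kcnmb2: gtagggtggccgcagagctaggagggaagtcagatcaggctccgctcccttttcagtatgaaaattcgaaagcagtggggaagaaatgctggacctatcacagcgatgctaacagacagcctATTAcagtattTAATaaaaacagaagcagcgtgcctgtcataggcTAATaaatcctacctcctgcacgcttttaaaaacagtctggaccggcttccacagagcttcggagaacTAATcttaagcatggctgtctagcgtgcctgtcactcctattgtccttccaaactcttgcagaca
Kcnd3: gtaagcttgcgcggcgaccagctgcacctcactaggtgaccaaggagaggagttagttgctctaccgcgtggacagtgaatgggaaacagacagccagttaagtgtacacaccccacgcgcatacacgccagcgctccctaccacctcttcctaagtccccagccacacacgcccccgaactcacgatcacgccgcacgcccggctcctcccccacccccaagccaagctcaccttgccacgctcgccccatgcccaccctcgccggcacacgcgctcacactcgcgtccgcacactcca
Of 32851 promoters of this length, 58.0% held at least 1 match and 11.6% held 4 or more. RefSeq promoters were found for 59 of the 81 members, and of the 83 promoters counted for them 48.2% held a match and 4.82% held 4 or more. A match is a description of the letters and does not show binding.

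In the Mtg8 comparison 0 of the 54 tested members passed an adjusted p of 0.05 in limma, where 0% of 16132 genes were called lower and 0% higher. Both edgeR (0% of all genes lower and 0% higher) and DESeq2 (0.062% of all genes lower and 0.13% higher) also called 0 members, and the lowest adjusted p of a member was 0.859 in limma and 0.382 in DESeq2. At an unadjusted limma p under 0.05 there were 4 lower members, or 7.41%, against 2.44% of all genes, and 2 higher, or 3.7%, against 3.06%. In 8 members every library labelled *Mtg8* mutant lay below every control (14.8%, against 5.52% of all genes), and in 2 every one lay above (3.7%, against 4.68%). The separate members included *Kcnc1*, *Kcnk2*, *Kcnk3*, *Kcnmb2*, *Kcnrg* and *Kcns3* on the lower side and were *Kcnh2* and *Kcnn1* on the higher side. The median log2 fold change over members was -0.14, against -0.01 over all genes tested, and it was 0.11, -0.42 and -0.06 in labelled mutants 2, 3 and 4.

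Values are given for members with an unadjusted p under 0.05, none of which passed the adjusted threshold. *Kcnmb2* had 871, 892 and 829.5 normalised counts in Mtg8 controls 1, 2 and 4 and 665, 697 and 563 in labelled mutants 2, 3 and 4, without overlap (log2 fold change -0.43, SE 0.20, unadjusted p = 0.0481). *Kcns3* had 53.7, 41.6 and 40.1 against 36.3, 19.3 and 9.17, again without overlap (log2 fold change -1.21, SE 0.49, unadjusted p = 0.0294).

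*Kcnd3* had 919.9, 876 and 673 in controls, and the labelled mutants averaged 484 ± 174 (SD, n = 3). Mutants 3 and 4 were at 368 and 399.8, below all controls, and mutant 2 lay just above control 4 (log2 fold change -0.81, SE 0.26, unadjusted p = 0.00943). *Kcnn1* had 30.2, 42.7 and 38.1 against 77.0, 72.6 and 74.2, a narrow range in both groups with no overlap (log2 fold change 1.01, SE 0.33, unadjusted p = 0.00928). The Erg-type *Kcnh2* had 6.71, 11.7 and 2.93 against 12.5, 21.1 and 22.2 (log2 fold change 1.39, SE 0.61, unadjusted p = 0.0407). Its counts were near the limit for testing.

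The 5 members called in the Lhx6 comparison had log2 fold changes of the same sign here, and 0 of them passed the adjusted threshold. The share of all genes with the same sign in both comparisons was not computed, so the shared sign is a description of these 5 only. *Kcnk2* had 872, 895 and 982 normalised counts in controls and 839, 676 and 673 in the libraries labelled *Mtg8* mutant, without overlap (log2 fold change -0.33, SE 0.20, adjusted p = 0.866). *Kcnc2* had 367, 402 and 376 against 224, 247 and 433, and the last library lay above all controls (log2 fold change -0.40, adjusted p = 0.87). *Kcnip1* had 289.5, 248 and 284 against 219, 555 and 777, with mutant 2 below the controls and the other 2 above them (log2 fold change 0.73, SE 0.38, unadjusted p = 0.0749).

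*Kcnn2* had 259, 151 and 132 against 131, 242 and 248, which overlapped (adjusted p = 0.943). *Kcnc1* had 292, 329.5 and 342 against 257, 112 and 286, and *Kcnrg* 142, 156 and 134 against 100.8, 71.7 and 115, each separate on the lower side. Mutant 3 was the lowest library for both of these genes. Whether the Lhx6 and Mtg8 differences of any member differ from each other was not tested, since the tables were normalised separately.

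Of the 36 partners 34 were in the Mtg8 table and 31 were tested, with 0 called in either direction. *Dpp10* had a log2 fold change of -0.35 (adjusted p = 0.866) and *Cntnap2* of -0.27 (adjusted p = 0.873). *Akap5*, a scaffold that holds kinases at M-current channels, had 1098, 1327 and 1582 normalised counts in controls and 831.5, 729.7 and 730 in the libraries labelled *Mtg8* mutant (log2 fold change -0.79, unadjusted p = 0.0022, adjusted p = 0.769).

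Marker sums also moved in this comparison. The 9 MGE lineage genes summed to between 48269 and 52105 in Mtg8 controls and to between 29164 and 32541 in the labelled mutants. The 8 radial glia genes summed to between 6018 and 7406 and between 7859 and 12230. The 5 cycling genes summed to between 3270 and 3551 in controls and to between 4118 and 4957, and in limma 0 genes of these lists were called. DESeq2 called *Sst* and *Npy* lower among the MGE lineage genes, *Neurod2* and *Emx1* higher among the pyramidal lineage genes and *Sp8* higher among the CGE interneuron genes, and 0 radial glia or cycling genes. The 6 choroid plexus genes summed to between 84.2 and 126 in controls and to between 115 and 2138 in the labelled mutants. Labelled mutant 2 held the highest of these sums, with 1925 normalised counts of *Ttr*. The part of these marker genes in the channel values was not tested.

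The members below the mean of 10 were low in nearly all libraries. In the Lhx6 table the highest mean among them was 9.51 normalised counts, the highest single value was 44.5, and 2 of them had a value above 0 in every library. The Mtg8 table gave 8.69, 19.2 and 6 for the same quantities. In the Mtg8 table *Kcna2* was among them, at 14.5, 8.53 and 12.7 in controls and 4.53, 4.6 and 4.59 in the labelled mutants. *Kcns1* was at 4.47, 4.27 and 2.93 against 10.2, 8.27 and 4.59. Both pairs of groups were separate, at counts too low for the test used here.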

How the data were processed

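RNA from sorted YFP+ cortical cells of single embryos was sequenced on a NextSeq 500 after low-input library preparation. According to the submitters' notes and the study's methods, the authors ran fastp 0.20.1 for trimming, STAR 2.7b for alignment to GRCm38.p6 and featureCounts 1.6.4 for counting, filtered out sex-linked genes and used DESeq2 (version not given in the sources used here). The authors deposited, for each table, DESeq2-normalised counts per library (signal: gene counts divided by a size factor of the library), and also their own log2 fold changes, errors, statistics and p-values, which were not used.

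Each table was analysed alone. Normalised counts were transformed as log2(value + 1) and genes with a mean of at least 10 were tested with limma 3.58.1 (trend, two-sided, R 4.3.3), with Benjamini-Hochberg adjustment over all genes tested and calls at adjusted p under 0.05. A fold change is on the log2(value + 1) scale. The added 1 shrinks changes of low genes, while zeros in single libraries can enlarge them: for 7 of the 9 Lhx6 members with a 0 in at least 1 library the size of the change was larger than in DESeq2. Dividing by the value of 1 read in each library recovered whole reads for 100% of values (tolerance 0.01), and edgeR 4.0.16 and DESeq2 1.42.0 were run on these as alternatives. The count test was not the primary test because the deposited values are normalised. The fits were tested on simulated data. Depth was 12218422 to 22053032 reads, and a floor of 3 reads covers counting error only. Levels per kb used exon lengths.

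Named genes were the members called by any tool, those with an unadjusted p under 0.05 and separate groups, the 10 highest per kb in Lhx6 controls, a fixed list of 24 channel genes, and the extremes of subfamilies. *Kcnk3*, *Kcns1* and *Kcnj13* were named after their values were seen. Promoter matches were counted outside chromosome 18. The members, lists and tests were chosen with earlier results of these data known. Replicate numbers were checked and were not used as pairs. Same-numbered libraries correlated above the others in the Mtg8 comparison but not in the Lhx6 comparison. Alternatives were other pseudocounts, mean limits, scalings, tools, covariates and each library left out. Values of some members are not reported here.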

Additional observations from a re-analysis of the deposited data

Results flagged for a closer look

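The named members gave 50 sets of Lhx6 controls or Lhx6 mutants to examine, and in 2 of them 1 library stood far from the rest by Dixon's 95% criterion, which chance meets in about 1 in 20 sets. *Kcnd3* had 417.4 normalised counts in Lhx6 control 2, where the other controls held between 584.5 and 613.5. *Kcns3* had 35.89 in Lhx6 mutant 1, where the other 4 mutants were at 0. With Lhx6 control 2 left out, and with each other library left out in turn, *Kcnd3* kept its call, with adjusted p-values up to 0.0157.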

How the results depend on the processing

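In the Lhx6 comparison the count of 4 lower members became 0 with the name style of the libraries as a covariate and 0 with the replicate block, and it ran from 3 to 5 when 1 library was left out. The count of 1 higher member became 2 with DESeq2, with a minimum mean of 50 and with a pseudocount of 10. It became 0 with the name style covariate, with the replicate block and, in an alternative chosen after seeing the data, without the libraries high in choroid plexus genes, and ran from 1 to 2 with 1 library left out. The 2 called partners became 5 with DESeq2, 1 with the name style covariate and 0 with the replicate block, and ran from 2 to 3. The median over members of -0.08 became 0.10 with edgeR, and -0.26 both with the name style covariate and within the undated libraries, and ran from -0.16 to 0.04. In the Mtg8 comparison the 0 called partners ran from 0 to 1, and the median of -0.14 ran from -0.21 to 0.03. The causes were not tested.

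Correlations of same-numbered Lhx6 libraries were -0.15, 0.0017 and 0.072, within the range of the differently numbered ones, -0.21 to 0.18. Those of the 2 Mtg8 pairs were 0.14 and 0.16, above the differently numbered ones, -0.18 to 0.078. Whether the replicate numbers pair the Mtg8 samples was therefore not settled, and the main fits used no pairing. The block left 0 calls among members, and it uses only 3 numbers in the Lhx6 comparison. *Kcnmb2*, *Kcnk2*, *Kcnd3*, *Kcns3* and *Kcnn1* kept their sign under both the block and the name style covariate, with adjusted p-values for *Kcnd3* of 0.242 and 0.108. What depth limits in the low members was not tested.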
